A study of Mus musculus with 15 samples.

Results

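Cxcl1, Cxcl2 and Cxcl5, 3 mouse chemokine genes selected by symbol as targets of interleukin-17 (IL-17) whose mRNAs have been reported to bind Arid5a, were followed through an RNA immunoprecipitation sequencing (RIP-seq) study. All 3 were among the 25239 genes of the count and expression tables, and 2 of them, Cxcl1 and Cxcl5, passed the filter on low counts that left 17835 genes for testing. The cells were ST2, a mouse stromal cell line, so that all values come from 1 line in culture. They were given IL-17 at 200 ng/mL or medium for 3 h, crosslinked with 1% formaldehyde and lysed, and RNA was recovered with an antibody against Arid5a or with mouse IgG2b as the control antibody. The 15 libraries form 4 groups: Arid5a with IL-17 (n = 4), IgG with IL-17 (n = 3, numbered 2, 3 and 4), Arid5a in medium (n = 4) and IgG in medium (n = 4). The labels do not say whether replicates were separate cultures, so p-values measure the spread between these libraries, which may be technical.

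Cxcl1, Cxcl2 and Cxcl5 are secreted proteins that carry a glutamate-leucine-arginine (ELR) motif before their CXC cysteines, and they draw neutrophils out of the blood by binding the receptor Cxcr2. Stromal and epithelial cells make them in response to IL-17, which raises their transcription through NF-kappaB and C/EBP factors and also prolongs the life of their short-lived mRNAs through the adaptor Act1. Arid5a is an RNA-binding protein best known for stabilising Il6 mRNA, and it opposes the endoribonuclease Regnase-1, the product of Zc3h12a.

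The 3 genes lie in a cluster of 7 CXC chemokine genes on chromosome 5 (coordinates and sequences from RefSeq, GRCm38.p6, the assembly that mm10 names). Cxcl5 (gene ID 20311) stands at one end at chr5:90759298-90761625, Cxcl1 (gene ID 14825) lies at chr5:90891245-90893121 and Cxcl2 (gene ID 20310) at chr5:90903899-90905938. Cxcl1 and Cxcl2 are neighbours with 10777 bases between them, and no other RefSeq gene model overlaps any of the 3. The 250 bases before the transcription start of Cxcl1 (chr5:90890995-90891244) and of Cxcl2 (chr5:90903649-90903898), both on the plus strand, are shown because these neighbours share promoter letters and differ in their counts. Capitals mark the letters GGGAATTTCC, the only match of the kappaB consensus of NF-kappaB on this strand of the Cxcl1 window.
Cxcl1: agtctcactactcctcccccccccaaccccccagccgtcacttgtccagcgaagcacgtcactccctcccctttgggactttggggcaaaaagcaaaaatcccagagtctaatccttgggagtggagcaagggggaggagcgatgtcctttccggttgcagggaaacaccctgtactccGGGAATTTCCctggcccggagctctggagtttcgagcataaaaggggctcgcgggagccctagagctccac
Cxcl2: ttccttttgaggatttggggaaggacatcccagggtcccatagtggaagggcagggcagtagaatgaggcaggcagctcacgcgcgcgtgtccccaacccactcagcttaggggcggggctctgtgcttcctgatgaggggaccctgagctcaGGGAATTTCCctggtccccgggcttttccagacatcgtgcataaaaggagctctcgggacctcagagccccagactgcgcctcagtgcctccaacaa
The kappaB letters began 71 bases before the start in Cxcl1 and 97 bases before it in Cxcl2, and the identical run around them was 14 bases long in both. They were found, on either strand, in 28 of the 32851 RefSeq mouse promoter windows of the same length (0.0852%), and Cxcl3, another gene of the cluster, also held them, from 73 bases before its start. Neither the TATA letters TATAAA (12.4% of windows) nor the C/EBP letters TTGCNNAA (9.56%) occurred in the windows of Cxcl1 and Cxcl2, searched on both strands, which says only that these letters are not there. The promoter of Cxcl5 is not shown.

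Library totals ran from 3411753 to 5713913 counts with Arid5a and IL-17, from 2216655 to 4496924 with IgG and IL-17, from 2128688 to 3636336 with Arid5a in medium and from 939139 to 4580018 with IgG in medium. IgG medium 2 and IgG IL-17 4 were known from earlier results to lie farthest from the rest of their groups, and Arid5a IL-17 4 was the shallowest of its group. Of 11 stromal markers 9 averaged above 10 CPM (counts scaled to library size) in every group, Col1a1, Col1a2 and Sparc among those listed, while Thy1 and Lepr were low. Of 10 neutrophil markers the summed level was 9.19 to 23.2 CPM with Arid5a and IL-17, 8.13 to 34.3 with IgG and IL-17, 27.0 to 43.8 with Arid5a in medium and 13.9 to 25.9 with IgG in medium. S100a8 was at 0 in every library of 3 groups and S100a9 in every library of 2. The summed level of 7 markers of other leukocytes lay between 5.95 and 19.2 CPM, and that of 8 epithelial and endothelial markers between 13.2 and 75.2 CPM. The part of these levels in the results was not tested.

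Cxcl1 was the most abundant of the 3 after IL-17. Its level in FPKM (fragments scaled to gene length and library size, the unit used here to compare genes) was 185, 208, 174 and 166 in Arid5a IL-17 libraries 1 to 4 and 182, 128 and 255 in IgG IL-17 libraries 2 to 4. It was 3.60, 9.20, 13.2 and 11.2 in Arid5a medium libraries and 16.3, 8.63, 7.95 and 14.2 in IgG medium libraries. Every IL-17 library stood above every medium library with either antibody, whereas the antibodies overlapped under both treatments. The mean of 183 ± 18.5 FPKM (SD, n = 4) placed Cxcl1 at rank 500 of 25239 genes in Arid5a IL-17 libraries, and the mean of 188 ± 63.8 (n = 3) at rank 447 in IgG IL-17 libraries. In medium the means were 9.31 ± 4.14 (n = 4) with Arid5a and 11.8 ± 4.11 (n = 4) with IgG, at ranks 6226 and 5229. From the highest mean to the lowest the order was IgG IL-17, Arid5a IL-17, IgG medium and Arid5a medium, in which the first pair and the last pair of neighbours differed by less than the SDs of their libraries.

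Cxcl5, also called LIX in the mouse, was almost undetected in medium and well represented after IL-17. It had 52.1, 58.7, 50.2 and 40.4 FPKM in Arid5a IL-17 libraries 1 to 4 and 18.3, 40.7 and 38.7 in IgG IL-17 libraries 2 to 4. In medium it had 0.700, 0.960, 0.940 and 0.750 FPKM in Arid5a libraries and 1.48, 0.740, 0.450 and 0.230 in IgG libraries. The treatments did not overlap, and with IL-17 the lowest Arid5a library, number 4, lay just below the highest IgG library, number 3. The medium values rest on 3 or 4 counts in each Arid5a library and on 10, 1, 2 and 1 counts in the IgG libraries. Cxcl5 therefore passed the filter on low counts only through its IL-17 groups. Its means were 50.3 ± 7.55 FPKM with Arid5a and IL-17, 32.6 ± 12.4 with IgG and IL-17, 0.837 ± 0.132 with Arid5a in medium and 0.725 ± 0.545 with IgG in medium (SD). That is also their order from highest to lowest; the IL-17 means differed by more than either SD although the libraries overlapped, and the medium means by less.

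Cxcl2, called MIP-2 in the mouse, gave 8 counts over all 15 libraries. It had 0, 1, 1 and 1 counts in Arid5a IL-17 libraries, 2, 0 and 1 in IgG IL-17 libraries, 0 in each of the 4 Arid5a medium libraries and 0, 1, 0 and 1 in IgG medium libraries. The groups overlapped, and a difference was not detectable at this depth. Summed over a group, this was 0.154 CPM of unadjusted library totals with Arid5a and IL-17 (exact Poisson 95% interval 0.0317 to 0.449), 0.316 with IgG and IL-17 (0.0652 to 0.924) and 0.172 with IgG in medium (0.0209 to 0.622), and the count of 0 with Arid5a in medium allows up to 0.258 CPM if taken as 3 counts of the group's total, or 0.317 CPM by the exact Poisson interval. These intervals cover counting error only. When the filter was dropped and 23747 genes were fitted, the edgeR adjusted p of Cxcl2 lay between 0.385 and 0.971 in the 5 comparisons, and no fold is given because every group was at or near the floor of 3 counts.

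**Figure D1:**
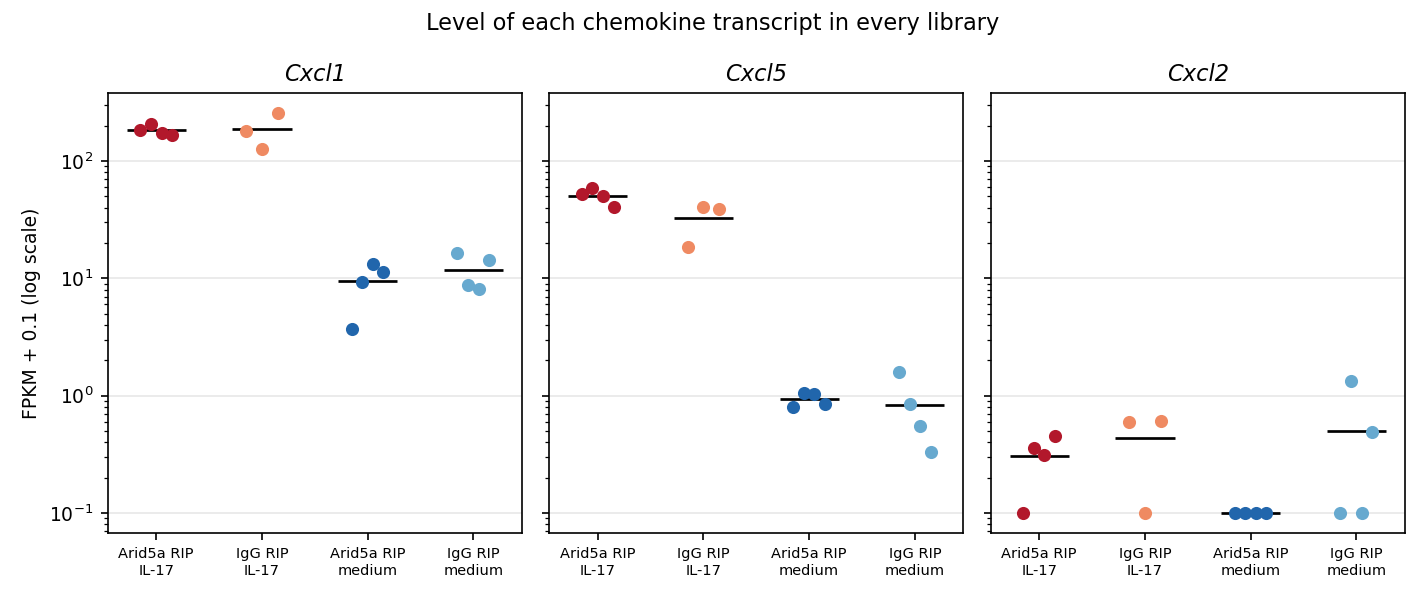
Level of Cxcl1, Cxcl5 and Cxcl2 in each of the 15 libraries, as FPKM + 0.1 on a log axis, by group; points are libraries and bars are group means. IL-17 libraries of Cxcl1 (128 to 255 FPKM) and Cxcl5 (18.3 to 58.7 FPKM) lie above all medium libraries, whereas Cxcl2 stays at 0 to 1.22 FPKM.

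The effect of IL-17 on RNA recovered with the Arid5a antibody was tested with edgeR's quasi-likelihood test on the counts over all genes, with Benjamini-Hochberg adjustment, and genes with an adjusted p below 0.05 are called. Cxcl1 had 664, 658, 683 and 404 counts in Arid5a IL-17 libraries and 8, 15, 29 and 31 counts in Arid5a medium libraries, with no overlap. It rose 20.5-fold (95% interval 13.9 to 30.3), or by 4.36 ± 0.277 (SE) on the log2 scale, with an edgeR adjusted p of 8.42e-14. Cxcl5 had 387, 391, 400 and 196 counts with IL-17 and 3, 3, 4 and 4 in medium, again with no overlap. It rose 66.2-fold (38.4 to 114.2), or by 6.05 ± 0.388 on the log2 scale, with an edgeR adjusted p of 7.99e-14. Because it passed the filter through its IL-17 groups, the fit without the filter is given too, and its log2 fold there was 6.08 (edgeR adjusted p 2.31e-21). Both tested members were thus among the 1008 genes called (5.65% of those tested), of which 863 (4.84%) were higher and 145 (0.813%) lower with IL-17; scaling on well-expressed genes (mean log2 CPM no lower than 5) gave 115 higher and 206 lower. By size of log2 fold Cxcl1 stood at rank 3 of 17835 genes and at rank 1 of the 5390 well-expressed genes. Cxcl5 stood at rank 1, over 3 or 4 counts in each medium library, which is a description of genes that the filter admitted. The median log2 fold of the well-expressed genes was 0.30 in this comparison, and scaling on them gave Cxcl1 a log2 fold of 4.05 and Cxcl5 one of 5.74. In bulk libraries, fewer cells making a transcript and less of it per cell cannot be told apart, and unprecipitated RNA was not analysed here, so transcript abundance and recovery by the antibody cannot be told apart either.

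The same comparison in the IgG control gave rises of both genes. Cxcl1 had 632, 249 and 424 counts in IgG IL-17 libraries 2 to 4 and 57, 6, 18 and 31 counts in IgG medium libraries 1 to 4. It rose 14.8-fold (9.98 to 22.0; log2 fold 3.89 ± 0.281), with an edgeR adjusted p of 1.44e-11, and stood at rank 18 of all genes by size of log2 fold. Cxcl5 had 122, 159 and 125 counts with IL-17 and 10, 1, 2 and 1 in medium. It rose 37.7-fold (21.2 to 67.3; log2 fold 5.24 ± 0.412), with an edgeR adjusted p of 3.39e-11, and stood at rank 9. That rank, over 14 counts in the medium group, is again a description of genes that the filter admitted. Without the filter the log2 fold of Cxcl5 was 5.24 (edgeR adjusted p 1.92e-16). In this comparison 88 genes were called (0.493%), 46 of them higher (0.258%) and 42 lower (0.235%), where DESeq2 called 115 higher and 205 lower. IgG medium 1 held 10 of the 14 Cxcl5 counts of its group, and without it the log2 fold of Cxcl5 was 6.21. Without both IgG medium 2 and IgG IL-17 4 the log2 folds were 3.49 for Cxcl1 and 5.01 for Cxcl5, and both genes were still called.

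The rises with the Arid5a antibody were set directly against those with IgG, which asks whether IL-17 changed the enrichment of the transcripts in the Arid5a precipitate. The log2 fold with IL-17 was larger in the Arid5a precipitates by 0.47 ± 0.394 for Cxcl1 (95% interval -0.33 to 1.27, edgeR adjusted p 0.570) and by 0.81 ± 0.670 for Cxcl5 (-0.55 to 2.17, adjusted p 0.563). Neither was called, while 174 genes were (0.976%), 155 of them toward a higher fold (0.869%) and 19 toward a lower one (0.107%), where DESeq2 called 242 and 163. The intervals thus reach from below 0 up to a 2.41-fold difference for Cxcl1 and a 4.50-fold difference for Cxcl5. The median difference of the 5390 well-expressed genes was itself 0.34 in this comparison. Over the alternative settings the difference for Cxcl1 ran from 0.15 to 0.89. For Cxcl5 the value rested on IgG medium 1, without which it was -0.16. Without IgG medium 2 and IgG IL-17 4 the differences were 0.89 for Cxcl1 and 1.07 for Cxcl5, with edgeR adjusted p of 0.171 and 0.366.

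Arid5a precipitates of IL-17-treated cells were then compared with IgG precipitates of the same treatment. Because libraries were scaled, the fold compares a transcript's share of the recovered RNA. The amount of RNA recovered with each antibody was not analysed. Cxcl1 had TMM-scaled levels of 134 ± 15 CPM (n = 4) with Arid5a and 142 ± 58.1 CPM (n = 3) with IgG. The log2 fold was -0.08 ± 0.235, with a 95% interval of the fold from 0.679 to 1.32 and an edgeR adjusted p of 0.945. The direction turned to 0.27 without IgG IL-17 4, and to 0.29 without that library and IgG medium 2. The median log2 fold of the well-expressed genes was 0.15 in this comparison. Cxcl5 had 75.6 ± 14.4 CPM with Arid5a and 47.2 ± 18.4 CPM with IgG. Its log2 fold was 0.69 ± 0.288, a 1.62-fold difference (1.08 to 2.42), with an unadjusted p of 0.0210 and an edgeR adjusted p of 0.460, and it was not called. Without IgG IL-17 2 the log2 fold was 0.42, without IgG IL-17 4 it was 0.90, and without that library and IgG medium 2 it was 0.94 (edgeR adjusted p 0.190). In this comparison 12 genes were called (0.0673%), 10 of them higher with Arid5a (0.0561%), 2 lower (0.0112%), where DESeq2 called 42 higher and 29 lower, and 1596 genes had an unadjusted p below 0.05. After IL-17 the spread of Cxcl1 was wider with IgG, with a coefficient of variation of 41.0% in IgG IL-17 libraries beside 11.2% in Arid5a IL-17 libraries. In medium it was 32.3% with IgG and 42.9% with Arid5a.

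In medium neither gene was called between the antibodies. Cxcl1 had 6.39 ± 2.74 CPM in Arid5a medium libraries and 8.94 ± 2.89 CPM in IgG medium libraries (SD, n = 4 each). The log2 fold was -0.55 ± 0.316, with a 95% interval of the fold from 0.438 to 1.07 and an edgeR adjusted p of 0.475. The median log2 fold of the well-expressed genes was -0.19 between these groups. Cxcl5 summed to 14 counts in each group, or 1.20 CPM of unadjusted library totals with Arid5a (exact Poisson 0.658 to 2.02) and 1.21 with IgG (0.659 to 2.02). Its log2 fold was -0.12 ± 0.586 (edgeR adjusted p 0.958), turned to 0.05 with scaling on well-expressed genes or with library totals, and was 0.85 without IgG medium 1. At this depth a fold between 0.405 and 2.10 lay within the 95% interval. Of all genes tested 112 were called in medium (0.628%), 10 higher (0.0561%) and 102 lower with Arid5a (0.572%), where library totals left 8 higher and 5 lower.

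**Figure D2:**
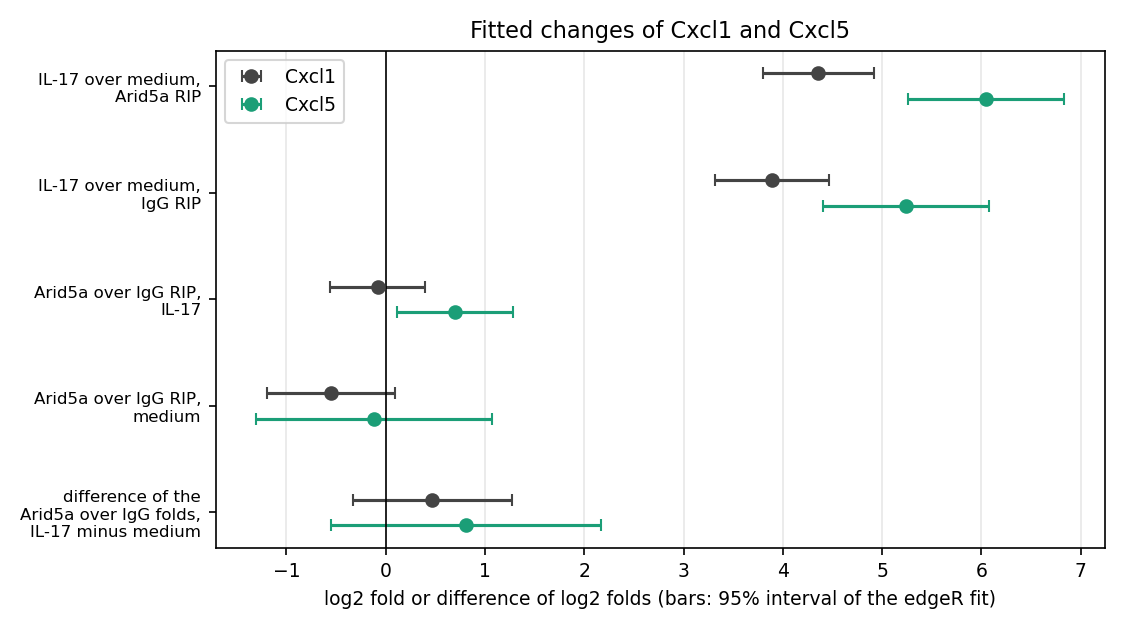
Log2 fold of Cxcl1 and Cxcl5 in the 5 edgeR comparisons, with 95% intervals as bars and 0 as the line of no difference. The IL-17 intervals lie between 3.32 and 6.84, and those of the Arid5a against IgG comparisons and of the difference reach no further than 2.17, with the Cxcl5 interval after IL-17 (0.11 to 1.28) the one of these that leaves out 0.

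The proportion between Cxcl5 and Cxcl1 within a library does not depend on how the library was scaled. Cxcl5 made up 36.8%, 37.3%, 36.9% and 32.7% of the summed Cxcl1 and Cxcl5 counts in Arid5a IL-17 libraries 1 to 4. It made up 16.2% (exact binomial 95% interval 13.6 to 19.0), 39.0% (34.2 to 43.9) and 22.8% (19.3 to 26.5) in IgG IL-17 libraries 2, 3 and 4. The Arid5a libraries thus lay within 5 percentage points of each other, while the 3 IgG intervals did not overlap. In medium the share was 27.3%, 16.7%, 12.1% and 11.4% with Arid5a and 3.12% to 14.9% with IgG, on 7 to 67 counts a library, with intervals as wide as 0.361 to 57.9. The log2 ratio of Cxcl5 to Cxcl1, with 0.5 counts added to each, was higher with IL-17 by 1.40 in Arid5a precipitates (means -0.84 ± 0.138 with IL-17 and -2.24 ± 0.701 in medium; two-sided exact permutation p = 0.0286, the smallest these groups allow) and by 1.37 in IgG precipitates (exact permutation p = 0.114). Adjusted over 8 ratio tests these were 0.114 and 0.229; with these group sizes no adjusted value could fall below 0.0571, so the adjusted tests do not bear on whether the ratios differed. The ratio was higher with Arid5a than with IgG by 0.76 after IL-17 (exact permutation p = 0.286, adjusted 0.457; the smallest possible p is 0.0571) and by 0.73 in medium (p = 0.343, adjusted 0.457). Per length, Cxcl1 exceeded Cxcl5 by 3.46 to 4.10 times in Arid5a IL-17 libraries, 3.14 to 9.91 times in IgG IL-17 libraries, 5.14 to 15 times in Arid5a medium libraries and 11 to 61.7 times in IgG medium libraries, in FPKM.

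The log2 ratio of Cxcl2 to Cxcl1 was lower with IL-17 by a difference of -3.79 in Arid5a precipitates (exact permutation p = 0.0286, adjusted 0.114) and of -3.72 in IgG precipitates (p = 0.0571, the smallest possible, adjusted 0.152). With at most 2 Cxcl2 counts in a library, these differences are set by Cxcl1 and by the 0.5 counts added. Between antibodies the ratio differed by -0.65 after IL-17 (exact permutation p = 0.514, adjusted 0.588) and by -0.58 in medium (p = 0.657, adjusted 0.657).

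**Figure D3:**
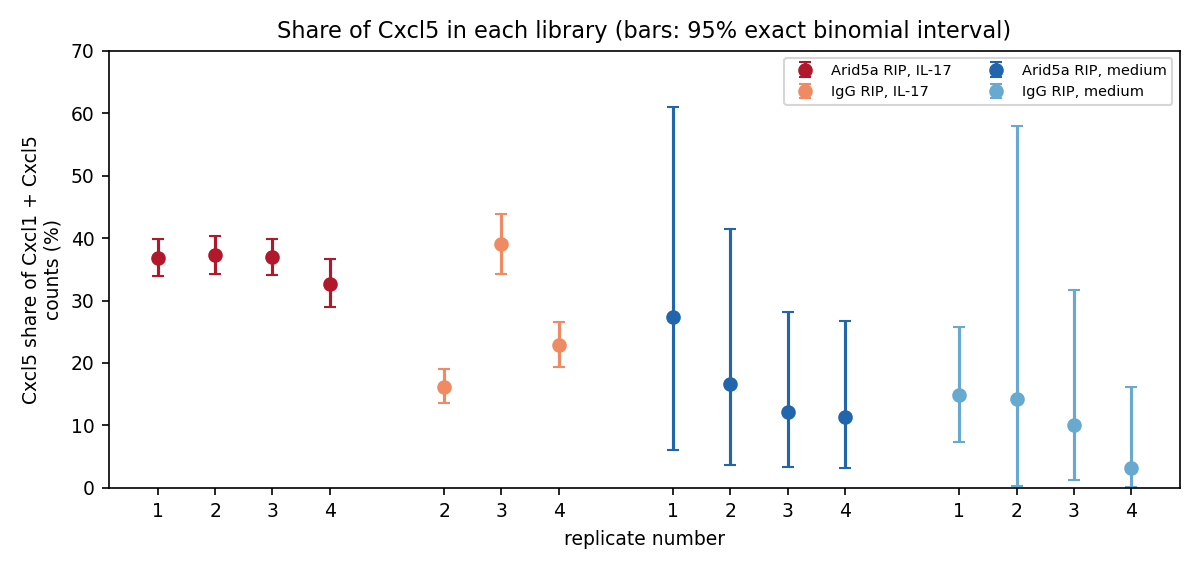
Share of Cxcl5 in the summed Cxcl1 and Cxcl5 counts of each library, in percent, with exact binomial 95% intervals that cover counting error only. The 4 Arid5a IL-17 libraries lie between 32.7% and 37.3%, the 3 IgG IL-17 libraries between 16.2% and 39.0%, and the medium libraries, on few counts, between 3.12% and 27.3%.

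The other genes of the cluster were close to absent and the receptors were low in all groups. Of 10 listed ELR CXC chemokines, related ligands and receptors, 5 passed the filter, and Cxcl1 and Cxcl5 were the 2 called, higher, in each IL-17 comparison, beside 4.84% of all genes with Arid5a and 0.258% with IgG. These 2 are the members chosen as IL-17 targets, and Cxcl5 passed the filter only through its IL-17 groups. The other genes tested were the receptors Cxcr1, Cxcr2 and Ackr1, so the share called does not bear on the family as a whole. In the comparisons that involve antibody 0 of the 5 were called, beside 0.0673%, 0.628% and 0.976% of all genes. Cxcl3, a close relative of Cxcl2 that also holds the kappaB letters, summed to 14 counts in Arid5a IL-17 libraries, 0 in IgG IL-17 libraries, 1 in Arid5a medium libraries and 2 in IgG medium libraries. Ppbp and Pf4, which encode chemokines of platelets, summed to 22 and 21 counts over all libraries, and Cxcl15, a chemokine known from the lung, to 52, beside 3909 for Cxcl1 and 1808 for Cxcl5. The expected counts of Cxcl1, Cxcl2, Cxcl3 and Cxcl5 were whole numbers in all 15 libraries. Cxcr2, the receptor of these ligands on neutrophils, averaged 4.67 ± 1.91 CPM with Arid5a and IL-17, 4.87 ± 4.36 with IgG and IL-17, 11.1 ± 4.77 with Arid5a in medium and 4.80 ± 1.80 with IgG in medium. Its log2 fold with IL-17 in Arid5a precipitates was -1.25 (edgeR adjusted p 0.209). Cxcr1, the second receptor, averaged at most 5.48 CPM and Ackr1, a scavenging receptor, at most 2.58 CPM in any group, and neither was called.

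**Figure D4:**
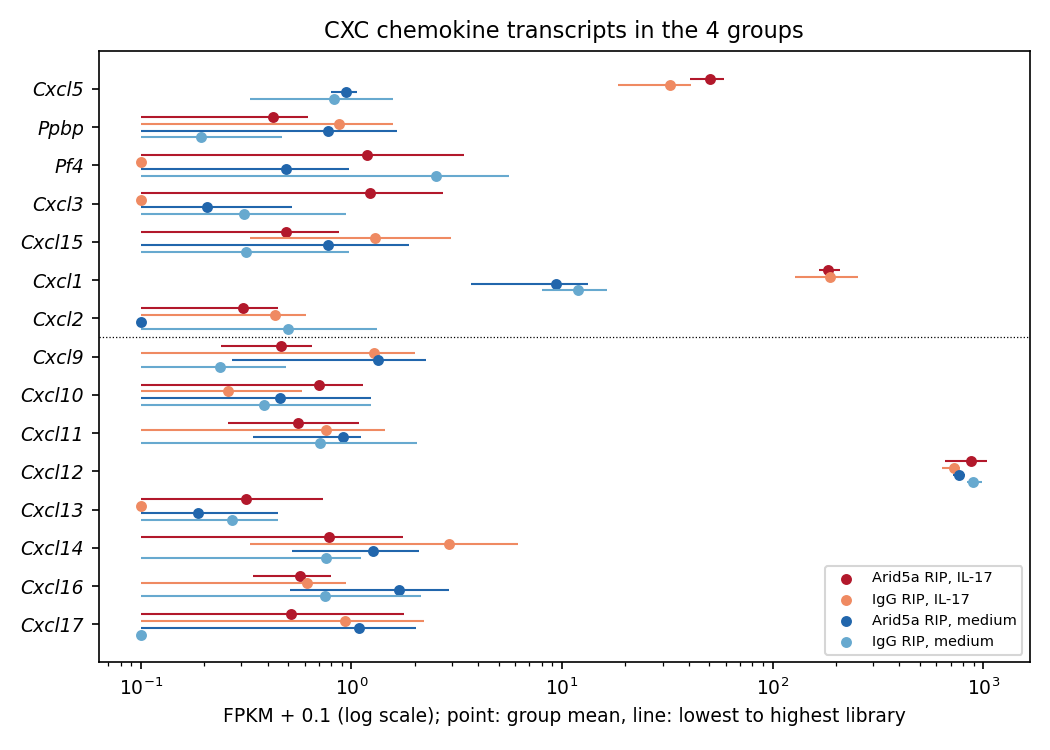
Group means of the listed CXC chemokine genes in FPKM, with a small constant added, on a log scale. Mean levels of Cxcl1 and Cxcl5 are 183 and 50.3 FPKM in Arid5a IL-17 libraries and 188 and 32.6 FPKM in IgG IL-17 libraries. Cxcl12 lies between 723 and 893 FPKM in all groups, and the other chemokines stay at 2.82 FPKM or below.

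Among 8 other CXC chemokines 3 passed the filter and 0 were called in any comparison, beside 0.0673% to 5.65% of all genes. Cxcl12, which holds blood-forming cells and neutrophils in the marrow and marks stromal cells, was far more abundant than the neutrophil chemokines. Its level was 873 ± 174 FPKM with Arid5a and IL-17, 723 ± 74.7 with IgG and IL-17, 766 ± 45.4 with Arid5a in medium and 893 ± 71.4 with IgG in medium. Its log2 fold with IL-17 was 0.34 ± 0.135 in Arid5a precipitates (edgeR adjusted p 0.136; 0.48 and 0.00545 without Arid5a IL-17 4) and -0.35 ± 0.147 in IgG precipitates (adjusted p 0.347). The difference between these was 0.69 ± 0.199 (edgeR adjusted p 0.0785), and without Arid5a IL-17 4 it was 0.83 with an adjusted p of 0.00579, past the threshold. In that comparison the median of the well-expressed genes was itself 0.34.

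Of 28 genes whose promoter window held the kappaB letters, 21 were in the table and 14 passed the filter. With IL-17, 3 of them were called higher in Arid5a precipitates (Cxcl1, Nfkbia and Trio), beside 4.84% of all genes, and 1 in IgG precipitates (Cxcl1), beside 0.258%, and 0 were lower in either. Trio had a log2 fold of 0.46 ± 0.132 in Arid5a precipitates (edgeR adjusted p 0.0308), where the median of the well-expressed genes was 0.30. Its call was not followed over the other settings. The letters were read from the Cxcl1 window, and Cxcl1 was chosen as an IL-17 target. Its place among the 14 and its calls therefore do not bear on genes with these letters. The median log2 fold of the 14 was -0.08 in Arid5a precipitates, where that of all genes was -0.12, and 0.20 in IgG precipitates, where that of all genes was 0.0032. Cxcl2 and Cxcl3, with the same letters, did not pass the filter.

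Among 16 transcription factors and co-factors of IL-17 targets, all tested, 7 rose and 1 fell with IL-17 in Arid5a precipitates, beside 4.84% and 0.813% of all genes. These shares cover all genes tested, and the share among genes of like abundance was not computed. This list and those that follow were also drawn up with earlier results of these data known. Their counts beside the shares are therefore a description. Nfkbiz, an NF-kappaB co-factor that some IL-17 target genes require, rose by 1.94 ± 0.197 on the log2 scale (edgeR adjusted p 1.78e-08). Nfkbia, the inhibitor of NF-kappaB, rose by 1.87 ± 0.224 (adjusted p 7.98e-07). Cebpd, a C/EBP factor, rose by 1.96 ± 0.257 (edgeR adjusted p 5.18e-06) and Nfkb2, an NF-kappaB subunit, by 1.41 ± 0.197 (adjusted p 1.73e-05). Fos, an AP-1 subunit named outside the rule because it was the 1 that fell, had a log2 fold of -1.40 ± 0.399 (edgeR adjusted p 0.0312), a call lost in 8 of 24 settings. The calls of Relb and Cebpb, also named outside the rule, were lost when scaling on well-expressed genes. In IgG precipitates 4 rose and 2 fell, beside 0.258% and 0.235% of all genes, with Nfkbiz at 1.48 ± 0.211 (edgeR adjusted p 9.55e-05), Cebpd at 1.70 ± 0.277 (0.000589) and Nfkb1 at 1.34 ± 0.221 (0.000632) among those that rose. Egr1, an immediate-early factor, fell by 1.17 there (edgeR adjusted p 0.000441), and Fos, again outside the rule, fell by 1.98 (adjusted p 0.0387), a call lost in 18 of 24 settings. None of the 16 was called in the comparisons that involve antibody, by edgeR, beside 0.0673%, 0.628% and 0.976% of all genes. The median log2 fold of the 16 was 0.46 in Arid5a precipitates, where that of all genes was -0.12 and that of the well-expressed genes 0.30, and 0.29 in IgG precipitates, where these were 0.0032 and -0.04.

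Of 17 reported regulators of Cxcl1 mRNA stability or translation, all tested, 6 rose with IL-17 in Arid5a precipitates (beside 4.84% of all genes) and 2 in IgG precipitates (beside 0.258%), and 0 fell. Zc3h12a, which encodes Regnase-1, an endoribonuclease that degrades inflammatory mRNAs, rose by 2.79 ± 0.261 on the log2 scale with Arid5a (edgeR adjusted p 2.34e-09) and by 1.75 ± 0.268 with IgG (adjusted p 0.000337). Rc3h1, which encodes the RNA-binding protein Roquin-1, rose by 0.89 ± 0.153 with Arid5a (edgeR adjusted p 0.000307) and by 0.72 ± 0.166 with IgG (adjusted p 0.0310), a call lost with IgG in 11 of 24 settings. Srsf1, a splicing factor, and Ddx3x, an RNA helicase, were higher in Arid5a precipitates by log2 folds of 0.64 and 0.55 (edgeR adjusted p 0.00490 and 0.00683), and both calls were lost when scaling on well-expressed genes. So were those of Elavl1 and Rc3h2, named outside the rule, so that 2 of the 6 calls were left with that scaling. Zfp36l2, which encodes a protein that binds AU-rich elements, was the 1 member called between antibodies. It was lower with Arid5a in medium (beside 0.572% of all genes) by a log2 fold of -0.60 ± 0.140 (edgeR adjusted p 0.0399), and the difference between treatments was 0.90 ± 0.207 (adjusted p 0.0263); both calls were lost with scaling on well-expressed genes. The transcript of Arid5a itself averaged 19.8 ± 12.1 CPM with Arid5a and IL-17, 22.1 ± 2.81 with IgG and IL-17, 15.4 ± 4.10 with Arid5a in medium and 15.7 ± 6.11 with IgG in medium, and it was not called. The median log2 fold of the 17 with IL-17 was 0.43 in Arid5a precipitates and 0.19 in IgG precipitates, beside the same all-gene medians of -0.12 and 0.0032 and well-expressed medians of 0.30 and -0.04.

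Of 19 stromal genes of neutrophil growth, survival and adhesion, 12 passed the filter and 4 rose with IL-17 in Arid5a precipitates, beside 4.84% of all genes. Ptgs2, the inducible cyclooxygenase, rose by 1.98 ± 0.302 on the log2 scale (edgeR adjusted p 0.000512), C3, the central complement component, by 2.58 ± 0.581 (0.00571), Csf1, a growth factor of macrophages, by 0.65 ± 0.146 (0.00507) and Vcam1, an adhesion molecule, by 1.03 ± 0.265 (0.0164). The calls of Csf1 and Vcam1 were lost when scaling on well-expressed genes. In IgG precipitates C3 rose by 2.69 ± 0.646 (edgeR adjusted p 0.0415), a call lost with the same scaling, and Kitl, the stem cell factor, fell by 0.89 (adjusted p 0.0173), beside 0.258% of all genes higher and 0.235% lower. Csf3, the granulocyte growth factor often induced together with these chemokines, had at most 13 counts in a library, and Il6, the best known Arid5a target, at most 8. The median log2 fold of the 12 that passed was -0.26 in Arid5a precipitates and 0.86 in IgG precipitates, where that of all genes was -0.12 and 0.0032. For the well-expressed genes it was 0.30 and -0.04.

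By their pattern over the 15 libraries, Cxcl1 and Cxcl5 were each other's nearest gene among 13721 genes compared, with a Pearson r of 0.964 between log2 CPM values. Next to Cxcl1 came Ccl2 (0.961), Slc20a1 (0.946), Clip1 (0.946) and Zc3h12a (0.942), and next to Cxcl5 came Slc20a1 (0.962), Ccl2 (0.958), Creb3l1 (0.954) and Nfkb1 (0.952). The 15 points fall into IL-17 and medium groups and share antibody and depth, so r is given as a description. Ccl2, the chemokine of monocytes, averaged 351 ± 40.2 CPM with Arid5a and IL-17, 343 ± 110.0 with IgG and IL-17, 38.8 ± 5.20 with Arid5a in medium and 62.6 ± 12.8 with IgG in medium. Its log2 folds with IL-17 of 3.17 (Arid5a) and 2.47 (IgG) were smaller than those of Cxcl1 and Cxcl5. Slc20a1, a phosphate transporter, had log2 folds of 1.25 and 0.88, Clip1, a microtubule-binding protein, 0.84 and 0.85, and Creb3l1, a membrane-bound transcription factor, 0.96 and 1.02 in Arid5a and IgG precipitates.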

How the data were processed

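The authors deposited expected counts per gene, read here as unnormalised RSEM estimates because 2.66% to 10.3% of a library's values were not whole, and FPKM for the same genes. STAR 2.7.9, RSEM 1.3.1, DESeq2 1.36.0, R 4.3.0 and mm10 are named, per the submitters' processing notes; which tool did what, which annotation was used and whether counting used strand are not given in the sources used here. The rounded counts went into edgeR 4.0.16 (R 4.3.3): filterByExpr by group, TMM factors, robust quasi-likelihood fit of 4 group means over 15 libraries, and Benjamini-Hochberg adjustment over 17835 genes. The common biological coefficient of variation was 0.341. CPM are TMM-scaled. Ratios were tested with exact permutations (SciPy 1.17.1). Of the table's symbols 99.22% matched RefSeq. The procedure was tested on counts simulated from the fitted means and dispersions, with depth as the only scaling difference between libraries. That test does not bear on the choice of scaling. Alternatives used DESeq2 1.42.0, limma 3.58.1 on log2(FPKM + 1) and log2(FPKM + 0.1), other scalings, filters and sets of libraries. The members, gene lists and tests were chosen with earlier results of these data known. Named genes were the 3 members, the ELR list, up to 4 called members of each other list by smallest p, and for each tested member the 5 genes with the highest r among genes whose mean log2 CPM reached 2. Fits over replicate numbers are in the closing section.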

Additional observations from a re-analysis of the deposited data

Results flagged for a closer look

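Within the Arid5a IL-17 group, replicate 4 stood apart from the other 3 in the share of Cxcl5 among the Cxcl1 and Cxcl5 counts. Its share was 32.7% (exact binomial 95% interval 28.9 to 36.6), against 36.8%, 37.3% and 36.9% in replicates 1, 2 and 3, and the gap to the nearest of them was 0.891 of the group's range. The intervals of all 4 libraries overlap, and chance marks about 1 in 20 groups in this way.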

How the results depend on the processing

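Cxcl1 and Cxcl5 were called higher with IL-17 with both antibodies in all 96 values computed from the alternatives and the libraries left out, with an adjusted p of at most 0.000155. Leaving out 1 library gave log2 folds of 4.10 to 4.55 and 3.58 to 4.18 for Cxcl1 and of 5.96 to 6.17 and 4.89 to 6.21 for Cxcl5, in Arid5a and IgG precipitates in that order. The pseudocount of log2(FPKM + 1) gave Cxcl5 lower values, 4.80 and 4.25. Neither gene was called between antibodies, or for the difference, in any of 141 values (smallest adjusted p 0.171), although the direction turned in 10. For Cxcl1 after IL-17 it turned to 0.0123 and 0.0126 with FPKM + 1 and + 0.1, to 0.29 without IgG medium 2 and IgG IL-17 4, and to 0.27 without IgG IL-17 4 (range without 1 library -0.33 to 0.27). For Cxcl5 in medium it turned to 0.0525 with well-expressed scaling and 0.0463 with library totals, and to 0.14 and 0.41 with FPKM + 1 and + 0.1 (without 1 library -0.46 to 0.85). Only the libraries compared gave no value for Cxcl5 in medium, where it did not pass the filter, and for the difference that setting is the fit already given. Without 1 library the range was 0.42 to 0.90 for Cxcl5 after IL-17, -0.72 to -0.29 for Cxcl1 in medium, 0.21 to 0.82 for the difference of Cxcl1 and -0.16 to 1.16 for that of Cxcl5. The ratio of Cxcl2 to Cxcl1 in medium turned to 0.26 without IgG medium 2 (range -1.32 to 0.26), where Cxcl2 has at most 1 count. The cause of these turns was not tested.

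Counts of called genes depended on the setting far more than the members did, and the cause was not tested. For IL-17 against medium with Arid5a, 1008 became 321 with well-expressed scaling (115 higher, 206 lower), 301 with library totals (156 and 145), 2977 with only the libraries compared, 113 and 75 with FPKM + 1 and + 0.1, and 2600 without IgG medium 2 and IgG IL-17 4. With IgG, 88 became 16 with only the libraries compared, 320 with DESeq2 (115 higher, 205 lower), and 45 and 40 with FPKM. For Arid5a against IgG after IL-17, 12 became 0 with well-expressed scaling, 26 without the filter, 71 with DESeq2 (42 higher, 29 lower), and 5 and 5 with FPKM. In medium, 112 became 0 with well-expressed scaling, 13 with library totals (8 higher, 5 lower), 1 with only the libraries compared, 348 with DESeq2, 1 and 1 with FPKM, and 15 without the pair of libraries. For the difference, 174 became 0 and 0 with these scalings, 405 with DESeq2 (242 higher, 163 lower), 6 and 2 with FPKM, and 309 without the pair of libraries. Leaving out 1 library gave 308 to 2257, 43 to 257, 2 to 76, 0 to 350 and 0 to 715 in the same order of comparisons, and moved these counts by over 1.5 times in 9, 5, 10, 11 and 11 of 15 cases. Libraries with the same replicate number did not deviate together (correlations -0.125 to 0.195), so the numbers were not taken as pairing. With the replicate block the counts were 784, 66, 5, 49 and 85, the log2 folds were 4.38, 3.86, -0.02, -0.54 and 0.52 for Cxcl1 and 6.06, 5.41, 0.62, -0.03 and 0.65 for Cxcl5, and no call of either gene changed. Of 1030 values for the other genes named or called in the lists, 850 kept direction and side of the threshold, 178 lost a call, 2 gained one and 0 turned. The calls lost most often were those of Zfp36l2 in medium (18 of 24 settings) and for the difference (14 of 23), of Fos (18 of 24), C3 (16), Relb (13) and Rc3h1 (11) with IgG, and of Rc3h2 (11), Relb (11), Vcam1 (9), Fos (8), Elavl1 (7), Cebpb (6) and Csf1 (5) with Arid5a, while Kitl with IgG lost it in 7. Depth limits Cxcl2 everywhere and Cxcl5 in medium.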
